A study of Mus musculus with 18 samples.

Results

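The 10 NF-kB genes described here were followed through mouse B cell activation and plasma cell formation, with and without the histone methyltransferase G9a. They were the subunit genes Nfkb1, Nfkb2, Rel, Rela and Relb, the inhibitor (IkB) genes Nfkbia, Nfkbib, Nfkbie and Nfkbid, and the feedback gene Tnfaip3. The 10 genes were picked by symbol from a deposited table of 12960 detected genes, and all 10 were measured in each of the 18 spleen libraries. G9a, encoded by Ehmt2, places methyl groups on histone H3, and the design asks how its loss alters expression in naive, activated and antibody-secreting cells of the B lineage.

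NF-kB is a family of dimeric transcription factors. Inhibitor proteins hold the dimers in the cytoplasm until signals from Toll-like receptors, the B cell receptor, CD40 or the BAFF receptor lead to destruction of the inhibitor. The RelA, c-Rel and p50 proteins carry most of the canonical response, RelB and p52 the slower non-canonical one, and several inhibitor genes are themselves NF-kB targets, which closes a feedback loop. In B cells c-Rel is known for its part in proliferation after activation, and lipopolysaccharide (LPS), a ligand of Toll-like receptor TLR4, is a classical inducer of the pathway.

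There were 6 groups of 3 libraries. Control mice (Ctrl) were heterozygous for an allele that drives Cre recombinase in the B lineage. Knockout mice (KO) were G9afl/fl and carried that same Cre allele in the heterozygous state, so both genotypes had 1 Cre allele and the floxed allele was present in KO mice only. Naive B cells (replicates 1, 2 and 3 of each genotype) came from mice that received no LPS and were enriched with CD43 beads, without a sort. Activated B cells and plasma cells (replicates 1, 3 and 4) came from mice given 50 µg LPS in 100 µl by the tail vein, with spleens taken 72 h later. Both were sorted as Zombie yellow-, F4/80-, Cd11b- and Thy1.2-, the activated cells being B220+GL7+ and the plasma cells CD138+ with mid or low B220. Each library was made from 1000 cells. Ages are not in the labels, nor is it said whether the libraries of a group came from separate mice, so p-values measure only the spread between these samples.

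Of the 10 genes, 6 carried a match to the kB consensus, the DNA motif that NF-kB dimers recognise, in the 250 bases before a RefSeq transcription start (assembly GRCm38.p6). The sequences are shown because several of these 6 genes are known feedback targets of NF-kB. All 6 were among the 8 of the 10 genes that fell from activated to plasma Ctrl cells, where 16.7% of all genes were lower. The others that fell, Nfkb1 and Relb, had no promoter entry to search. The share that fell among all genes with a match was not computed. From naive to activated cells the 6 differed, since Rel, Nfkbid, Nfkb2 and Tnfaip3 fell and Nfkbia and Nfkbie were not called. Promoter entries were matched for 8 genes (Nfkb1 and Relb had none), with 13 start windows among them. Capitals mark the letters that match the kB consensus read on either strand, with overlapping matches joined, and each sequence is written 5′ to 3′ on the strand of the gene. The Rel window was chr11:23770971-23771219 (minus strand), the Nfkbia window chr12:55492648-55492897 (minus), the Nfkbie window chr17:45555450-45555699 (plus) and the Nfkbid window chr7:30422156-30422405 (plus), the last of these lying before the second annotated start of that gene.
Rel: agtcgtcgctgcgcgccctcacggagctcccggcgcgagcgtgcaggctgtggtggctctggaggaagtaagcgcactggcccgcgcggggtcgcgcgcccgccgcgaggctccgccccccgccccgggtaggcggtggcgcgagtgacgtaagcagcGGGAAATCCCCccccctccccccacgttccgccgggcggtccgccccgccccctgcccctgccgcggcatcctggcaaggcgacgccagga
Nfkbia: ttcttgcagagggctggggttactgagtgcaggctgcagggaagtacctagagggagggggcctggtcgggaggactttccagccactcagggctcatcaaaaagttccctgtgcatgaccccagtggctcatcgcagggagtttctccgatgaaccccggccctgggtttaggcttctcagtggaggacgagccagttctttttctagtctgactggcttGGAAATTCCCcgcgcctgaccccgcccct
Nfkbie: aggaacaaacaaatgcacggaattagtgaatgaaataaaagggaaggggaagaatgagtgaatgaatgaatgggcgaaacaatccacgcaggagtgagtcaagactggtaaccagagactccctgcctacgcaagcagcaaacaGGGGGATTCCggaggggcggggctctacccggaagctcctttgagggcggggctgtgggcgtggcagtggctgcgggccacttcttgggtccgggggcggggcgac
Nfkbid: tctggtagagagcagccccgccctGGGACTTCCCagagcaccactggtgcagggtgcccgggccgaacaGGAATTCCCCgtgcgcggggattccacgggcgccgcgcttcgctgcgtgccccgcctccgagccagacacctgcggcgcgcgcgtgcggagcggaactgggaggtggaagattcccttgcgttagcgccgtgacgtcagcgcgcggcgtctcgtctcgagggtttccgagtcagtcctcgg
The windows of Nfkb2 and Tnfaip3 overlap annotated exons, so only 30 bases around a match are given for each, at chr19:46304688-46304717 (plus) and, in the 2 Tnfaip3 lines, at chr10:19015516-19015545 and chr10:19015411-19015440 (both minus).
Nfkb2: ggatcgtcacGGGAATTCCCCccctcgggg
Tnfaip3 site 1: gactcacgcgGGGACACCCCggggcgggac
Tnfaip3 site 2: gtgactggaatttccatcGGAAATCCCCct
The Nfkbia match began 29 bases before the start, the Rel match 92 and the Nfkbie match 106. Of the 13 windows, some of which share a gene, 8 held a match, against 2382 of 32851 windows of all genes (7.25%). By gene, 6 of 8 held a match, against 2225 of 27025 genes (8.23%). The windows of Rela and Nfkbib held none, and a link between a match and the fall was not tested. A match describes letters and is not a measured binding site.

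The cell types were checked against their markers, as summed levels. Levels are length- and depth-normalised read values (RPKM), brought to a common scale between libraries with 1 factor per library. All 8 B cell markers on the list were in the table and summed to 4931 to 5475 in naive Ctrl, 3587 to 4101 in activated Ctrl and 1338 to 1683 in plasma Ctrl libraries. The 7 plasma cell markers summed to 522 to 639, 1608 to 1786 and 12702 to 14341 in the same order. By limma (adjusted p under 0.05), 4 of the 7 were higher and 3 lower in activated than in naive Ctrl. Over all genes tested, 19% were higher and 39.4% lower. In plasma against activated Ctrl all 7 were higher, with 16.1% of all genes. The naive libraries also held more platelet marker signal (4 of 7 genes in the table, 47.7 to 111 in naive Ctrl against 1.28 to 1.52 in activated Ctrl) and more erythroid signal (2 of 7 genes, 284 to 374 against 4.02 to 4.98). T cell signal (4 of 9 genes) was higher too, 15.0 to 70.6 in naive Ctrl against 7.18 to 7.92 in activated Ctrl. Naive Ctrl replicate 1 held the highest T cell and platelet sums of the naive libraries. The median level of 57 odorant receptor genes, which are not known to be used by B cells, was 1.70 to 7.02 in the naive libraries and 0 to 0.952 in all others. The part of these signals in the naive values was not tested. The naive libraries varied more too, with a median SD per gene of 0.369 (Ctrl) and 0.388 (KO) log2 units against 0.125 to 0.134 in the activated and plasma groups. The table gives no depth. A rough estimate from low RPKM values and gene lengths was 1.62 to 3.96 M reads in naive, 2.68 to 10.77 in activated and 5.12 to 6.94 in plasma cell libraries. Only 32.5% to 43.4% of those low values lay within 0.1 of a whole read, so the estimate is uncertain. Ehmt2 itself read 19.4 ± 7.31 (Ctrl) and 17.0 ± 5.40 (KO) in naive, 22.3 ± 3.15 and 22.5 ± 0.817 in activated and 17.2 ± 0.873 and 13.8 ± 1.28 in plasma cells (SD, n = 3). A gene-level value counts exons outside a floxed segment, and which exons the allele loses is not given in the labels, so these values do not check the KO label.

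In control cells most of the 10 genes fell between activated B cells and plasma cells. Nfkb2, Nfkbid, Rel and Tnfaip3 fell at both steps. From naive to activated B cells 5 of the 10 genes were lower and none was higher (limma on log2(scaled RPKM + 1), Benjamini-Hochberg adjusted p under 0.05). Over all 12787 genes tested, 39.4% were lower and 19% higher in that step, with a median change of -0.29. From activated B cells to plasma cells 8 of the 10 fell and none rose, where 16.7% of all genes were lower and 16.1% higher. From naive B cells to plasma cells 9 of the 10 fell (44.4% of all genes were lower), and Nfkbib was the exception. RPKM as deposited and quantile normalization gave these same counts, 5, 8 and 9 lower. The median change of the 10 genes was -0.58, -1.19 and -1.89 in these 3 comparisons, which share control groups and are set side by side only. In bulk libraries fewer cells of a type and less RNA per cell cannot be told apart. A step here is a difference between groups, since activated and plasma cells were both taken at 72 h. Naive cells also differed by having no LPS and no sort, which cannot be told apart from cell type.

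**Figure D1:**
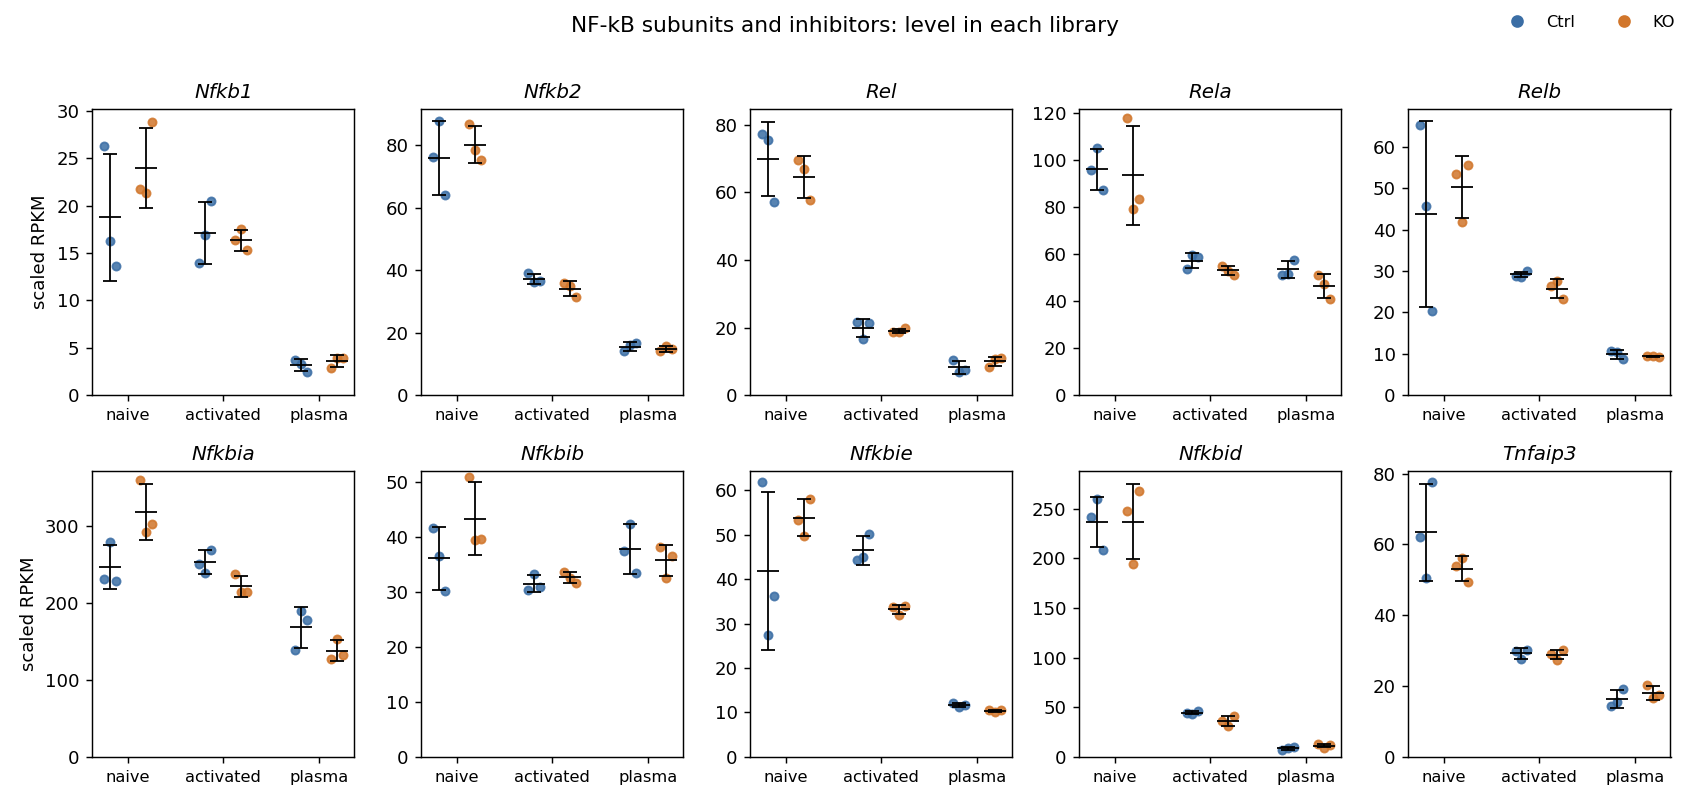
Level of each gene in scaled RPKM (vertical axis, linear from 0) in the 3 cell types. Points are libraries, blue for Ctrl and orange for KO, and bars are the mean ± SD of 3 libraries. Rel and Nfkbid are lower at both steps, Nfkb1, Relb and Nfkbie are lowest in plasma cells, and Nfkbib stays between 30.2 and 50.9 throughout.

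Among the subunits, Rel and Nfkb2 fell at both steps. Rel (Entrez 19696, chr11:23736847-23770970), which encodes c-Rel, read 77.1, 75.3 and 57.3 scaled RPKM in the 3 naive Ctrl libraries, 21.5, 16.7 and 21.4 in the activated ones and 10.5, 6.83 and 7.56 in the plasma cell ones. No library of one cell type overlapped another. The log2 change was -1.76 (SE 0.17, adjusted p = 1.5e-07) at the first step and -1.18 (SE 0.17, adjusted p = 1.5e-05) at the second. Nfkb2 (18034, chr19:46304320-46312385) encodes p100, the precursor of p52. It read 76.1, 87.8 and 64.0 in naive, 39.2, 36.3 and 36.5 in activated and 14.2, 16.0 and 16.7 in plasma Ctrl libraries, again without overlap. The Nfkb2 changes were -1.0 (SE 0.12, adjusted p = 3.7e-06) and -1.21 (SE 0.12, adjusted p = 2.4e-07).

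Nfkb1 and Relb fell at the second step. Nfkb1 (18033, chr3:135584655-135691547) encodes p105, the precursor of p50. Its naive Ctrl libraries read 26.3, 16.3 and 13.6, which spans the activated values of 13.9, 16.9 and 20.4, and the first step gave -0.09 (SE 0.22, adjusted p = 0.744). The plasma cell libraries read 3.72, 3.28 and 2.48, far below both other groups, with a second step of -2.12 (SE 0.22, adjusted p = 3.3e-07). Relb (19698, chr7:19606217-19629438), the non-canonical partner of p52, read 65.2, 45.8 and 20.3 in naive Ctrl, the widest spread of the 5 subunits in that group. The activated libraries lay close together at 28.9, 28.7 and 30.0, and the plasma cell libraries at 10.7, 10.4 and 8.67. The second step was -1.47 (SE 0.26, adjusted p = 1.8e-04). The first, -0.42 (adjusted p = 0.177), became -0.88 (adjusted p = 2.8e-04) without naive Ctrl replicate 3, the lowest Relb library; over all alternatives for Relb the adjusted p ran from 2.8e-04 to 0.822.

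Rela fell at the first step and had overlapping levels at the second. Rela (19697, chr19:5637483-5648130), which encodes the p65 transactivating subunit, read 95.7, 105 and 87.3 in naive, 53.6, 59.6 and 58.6 in activated and 51.3, 51.7 and 57.5 in plasma Ctrl libraries. The naive group stood above the others (first step -0.73, SE 0.13, adjusted p = 1.7e-04), while activated and plasma cells overlapped. The second step of Rela was -0.10 (95% confidence interval -0.38 to 0.18, adjusted p = 0.702). Per length, Rela was the most abundant subunit transcript in all 18 libraries.

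The make-up of the subunit pool differed between the cell types. Because RPKM is per length, the 5 subunits can be summed in each library. Their sum was 304 ± 53.8 in naive, 161 ± 5.35 in activated and 90.5 ± 2.39 in plasma Ctrl cells (SD, n = 3). Rela made up 32.0 ± 3.95% of it in naive, 35.6 ± 1.84% in activated and 59.1 ± 2.60% in plasma cells. The Rel share was 23.0 ± 0.516% in naive, 12.4 ± 1.62% in activated and 9.19 ± 2.16% in plasma cells. Nfkb1 held 6.09 ± 1.46%, 10.6 ± 1.69% and 3.50 ± 0.748% of the sum in the same order. These shares are given as a description, without a test.

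**Figure D2:**
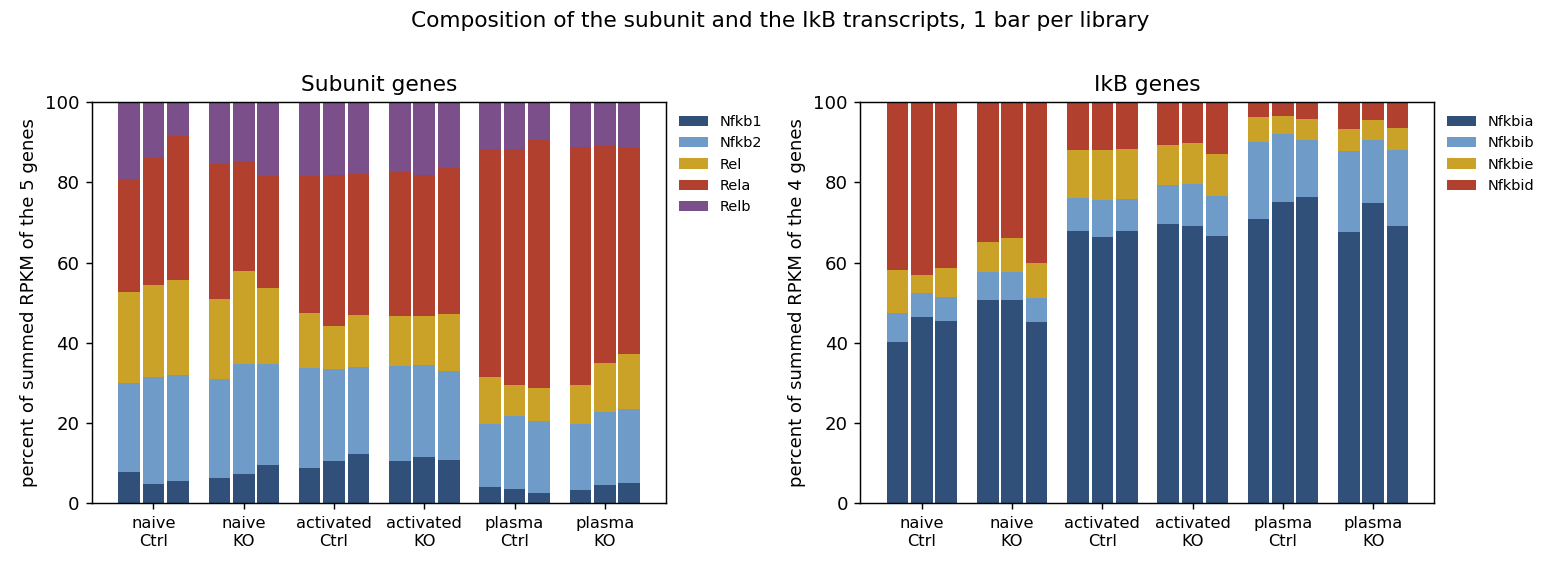
Percent of the summed scaled RPKM (vertical axis, 0 to 100) taken by each of the 5 subunit genes (left) and the 4 IkB genes (right), 1 bar per library. The Rela share is between 56.7% and 61.9% in plasma Ctrl libraries, and the Nfkbid share is at least 33.8% in the 6 naive libraries and at most 12.9% in the others.

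Of the IkB genes, Nfkbid fell at both steps, Nfkbie and Nfkbia fell at the second, and Nfkbib passed the test at neither. Nfkbid (243910, chr7:30421732-30428746) encodes IkBNS, a nuclear member of the family that acts on transcription. It read 242, 259 and 209 in naive, 44.4, 43.2 and 46.1 in activated and 7.11, 8.99 and 10.1 in plasma Ctrl libraries, and the 3 cell types did not overlap. The 2 steps were -2.38 (SE 0.15, adjusted p = 1.3e-09) and -2.24 (SE 0.15, adjusted p = 1.1e-09). From naive to plasma cells the change was -4.62, the largest of the 10 genes. Nfkbie (18037, chr17:45555703-45563169) encodes the cytoplasmic inhibitor IkB epsilon, which binds c-Rel and RelA dimers. Its 3 naive Ctrl libraries were spread over 61.8, 27.4 and 36.3, the activated ones read 44.2, 45.0 and 50.0, and the plasma cell ones 12.2, 11.3 and 11.8. Nfkbie fell at the second step (-1.89, SE 0.19, adjusted p = 2.0e-07), and its first step of 0.23 (adjusted p = 0.323) was called as a rise in 1 of the alternatives, without naive Ctrl replicate 1 (0.54, adjusted p = 0.0021; range over the Nfkbie alternatives 0.0021 to 0.888).

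Nfkbia and Nfkbib changed least between naive and plasma cells. Nfkbia (18035, chr12:55489410-55492647), which encodes IkB alpha, the rapidly resynthesised inhibitor of the canonical pathway, was the most abundant of the 10 transcripts per length in 17 of the 18 libraries, Nfkbid leading in naive Ctrl replicate 1. The naive Ctrl libraries read 232, 280 and 228, the activated ones 251, 239 and 269, and the plasma cell ones 139, 190 and 178. Its first step was 0.04 (adjusted p = 0.786) and its second -0.59 (SE 0.12, adjusted p = 7.0e-04), with every plasma cell library below every activated one. Nfkbib (18036, chr7:28758251-28767512) encodes IkB beta, which is not known for fast feedback. It read 41.6, 36.4 and 30.2 in naive, 30.4, 33.1 and 30.9 in activated and 37.5, 42.3 and 33.4 in plasma Ctrl libraries. Neither step passed the test for Nfkbib (-0.18, adjusted p = 0.271, and 0.25, 95% confidence interval -0.04 to 0.53, adjusted p = 0.197). With library weights the second step of Nfkbib was called higher (0.26, adjusted p = 0.0072), as it was without the naive libraries (adjusted p = 0.029), and over all alternatives the adjusted p ran from 0.0072 to 0.920.

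The make-up of the IkB pool differed as well. Nfkbid and Nfkbia took near-equal shares in naive Ctrl cells, 42.1 ± 0.790% and 44.0 ± 3.35% of the summed IkB level. In activated Ctrl cells Nfkbid held 11.9 ± 0.207% and Nfkbia 67.4 ± 0.939%, and in plasma Ctrl cells 3.84 ± 0.421% and 74.1 ± 2.83%. The share of Nfkbib was 6.41 ± 0.694% in naive and 16.8 ± 2.43% in plasma cells, although its level did not pass the test. The summed IkB level was 1.86 ± 0.194 times the summed subunit level in naive, 2.34 ± 0.0521 times in activated and 2.51 ± 0.350 times in plasma Ctrl cells. That sum counts Nfkbid, whose protein is nuclear, at 42.1% in naive and 3.84% in plasma Ctrl cells, so it is not a measure of cytoplasmic inhibitor alone.

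Tnfaip3 (21929, chr10:19000910-19015657) encodes A20, a ubiquitin-editing enzyme that damps signalling upstream of the inhibitors. Its libraries read 62.2, 50.4 and 77.6 in naive, 29.9, 27.6 and 30.2 in activated and 14.4, 15.4 and 19.2 in plasma Ctrl cells, with no overlap. Tnfaip3 fell by 1.07 (SE 0.15, adjusted p = 1.2e-05) and by 0.81 (SE 0.15, adjusted p = 2.2e-04) on the log2 scale. The genes with lower levels after the first step moved beside another set that was high in naive libraries. The 20 immediate early genes on a list, such as Nr4a1, summed to 4086 to 5700 in naive Ctrl, 901 to 945 in activated Ctrl and 1096 to 1427 in plasma Ctrl libraries, and 19 of the 20 fell at the first step. Their part in the levels of Nfkbid, Rel and Tnfaip3 was not tested.

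In KO libraries Nfkb2, Nfkbia, Nfkbid, Nfkbie, Rel, Relb and Tnfaip3 fell at both steps. The share of all genes lower at both steps was not computed in KO or in Ctrl, so both lists are a description only. In the fit of all libraries, none of the 10 passed the test for a KO change that differed between activated and naive cells. From naive to activated KO cells 9 of 10 genes fell (34.5% of all genes were lower), and in all 10 the KO groups did not overlap (35.9% of all genes). Nfkb1 was the gene not called (-0.51, adjusted p = 0.056; 0.044 to 0.181 over the alternatives, called with quantile normalization and with own libraries). The call of Nfkbib (-0.39, adjusted p = 0.023) was lost without activated KO replicate 3 or 4 or naive KO replicate 1, with library weights and with own libraries (up to 0.107), and that of Nfkbia (-0.52, adjusted p = 0.0017) with library weights (0.053; from 6.3e-04). From activated to plasma KO cells 8 of 10 fell (17.4% of all genes were lower), Nfkbid by 1.59 and Nfkb1 by 1.92 on the log2 scale. Rela (-0.19, adjusted p = 0.320) and Nfkbib (0.12, adjusted p = 0.601) were not called, although Rela passed on RPKM as deposited (-0.36, adjusted p = 0.049; up to 0.718).

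In the fit of all 18 libraries, loss of G9a gave no call in the 10 genes in any cell type. Some alternatives did call a gene, and these are given with each cell type. In naive B cells 2 of the 10 and 3072 of all 12787 genes had an unadjusted limma p under 0.05. None of the 10 passed the adjusted threshold, while 7.23% of all genes were called. Nfkbia was the nearest. It read 232, 280 and 228 in Ctrl and 360, 292 and 303 in KO libraries, the only one of the 10 whose naive groups did not overlap (4.32% of all genes lay higher in this way). The change was 0.37 (95% confidence interval 0.11 to 0.62, adjusted p = 0.070), and it passed without naive Ctrl replicate 2 (0.46, adjusted p = 0.027) or without naive KO replicate 2 (0.43, adjusted p = 0.035), within a range of 0.027 to 0.816 for Nfkbia over the alternatives. Nfkbie gave 0.43 (95% confidence interval 0.03 to 0.83, adjusted p = 0.171), with KO libraries at 53.4, 49.8 and 58.1 inside the Ctrl range of 27.4 to 61.8. Without naive Ctrl replicate 1 its change was 0.75 (adjusted p = 0.0031; 0.0031 to 0.781 over the Nfkbie alternatives).

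**Figure D3:**
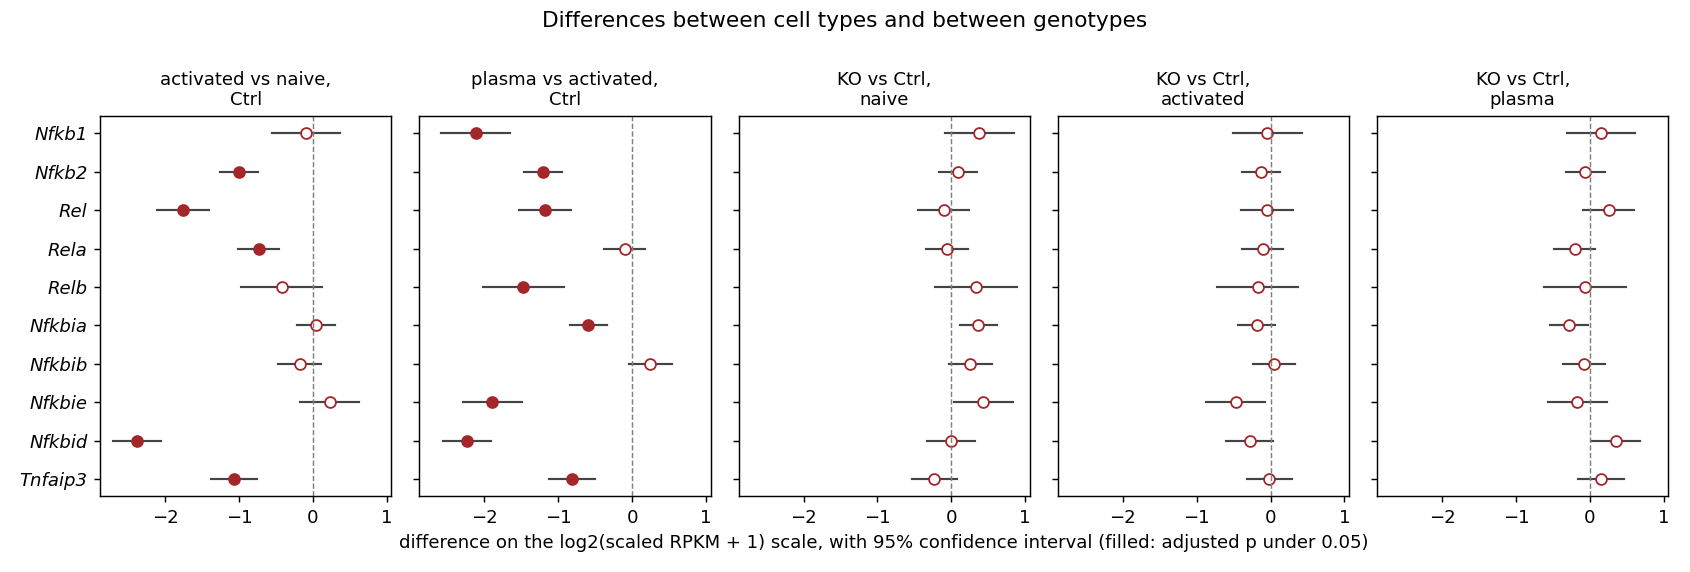
Difference on the log2(scaled RPKM + 1) scale (horizontal axis) with its 95% confidence interval for each gene, in both steps of Ctrl cells and for KO against Ctrl in each cell type. Filled points passed the adjusted threshold of 0.05: 5 genes and 8 genes in the steps, and none in the KO comparisons.

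In activated B cells the inhibitor Nfkbie was the gene nearest to a call. Its Ctrl libraries read 44.2, 45.0 and 50.0 and its KO libraries 33.8, 31.9 and 33.9, so the groups stood clear of each other with little spread within them. The change was -0.47 (SE 0.19, 95% confidence interval -0.87 to -0.07). In the fit of all 18 libraries, whose shared error includes the widely spread naive Nfkbie values, the adjusted p was 0.345. With only the 6 activated libraries it was 0.0067 (6.02% of all genes were then called lower), with library weights 4.5e-04 (10.2%) and without the 6 naive libraries 0.0011 (7.62%). Over all alternatives the adjusted p of Nfkbie ran from 4.5e-04 to 0.910, and the change from -0.50 to -0.42. None of the 10 was called in the fit of all libraries, with 1.78% of all genes called. At an unadjusted limma p under 0.05 there were 1 of the 10 and 1288 of all 12787 genes.

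With Nfkbie, 5 of the 10 genes had activated KO libraries wholly below the Ctrl ones, as did 16% of all genes. The others were Nfkbid (36.6, 31.6 and 41.6 in KO against 43.2 to 46.1 in Ctrl, change -0.29, adjusted p = 0.614), Nfkbia (237, 214 and 214 against 239 to 269, change -0.19, adjusted p = 0.762), Nfkb2 and Relb. None of these other changes passed the test in any alternative. Summed over the IkB genes, the level was 375 ± 18.7 in Ctrl and 324 ± 15.9 in KO, and the subunits summed to 161 ± 5.35 and 148 ± 6.33. Other genes moved in the same libraries. The 20 immediate early genes summed to 901 to 945 in Ctrl and 607 to 693 in KO, the 8 B cell markers to 3587 to 4101 and 2749 to 2841, and the 7 plasma cell markers to 1608 to 1786 and 902 to 1091. The 4 measured T cell markers summed to 7.18 to 7.92 in Ctrl and 12.1 to 14.0 in KO, and the 2 erythroid genes to 4.02 to 4.98 and 14.7 to 23.0. Of the T cell markers 3 had a mean under 1 in Ctrl and 2 in KO, and none of the 4 was called. The part of all these other genes in the Nfkbie and Nfkbid values was not tested.

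The KO changes of Nfkbie and Nfkbia pointed up in naive and down in activated cells, and that difference was tested. For Nfkbie it was -0.90 (SE 0.27, adjusted p = 0.085) and for Nfkbia -0.56 (SE 0.17, adjusted p = 0.094). Neither passed, and none of the 10 did (2.62% of all genes were called). At an unadjusted limma p under 0.05 there were 2 of the 10 and 2179 of all 12787 genes. With the replicate number as a block Nfkbie was called (adjusted p = 0.043). It was called as well without naive Ctrl replicate 1 (-1.22, adjusted p = 0.0019) or naive KO replicate 2 (-0.96, adjusted p = 0.047), and Nfkbia without naive Ctrl replicate 2 (-0.65, adjusted p = 0.038) or naive KO replicate 2 (-0.62, adjusted p = 0.041). The adjusted p ran from 0.0019 to 0.248 for Nfkbie and from 0.038 to 0.559 for Nfkbia.

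In plasma cells no gene of the 10 passed the test in the fit of all libraries, with 0.61% of all genes called. At an unadjusted limma p under 0.05 there were 2 of the 10 and 750 of all 12787 genes. Nfkbid read 7.11, 8.99 and 10.1 in Ctrl and 12.7, 9.35 and 12.4 in KO libraries, 1 of which lay within the Ctrl range. The change of Nfkbid was 0.36 (95% confidence interval 0.04 to 0.68, adjusted p = 0.718), called only with library weights (0.51, adjusted p = 0.0024, where 6.3% of all genes were called higher), as was Tnfaip3 (0.15 and adjusted p = 1 against 0.27 and 0.042). Nfkbia read 139, 190 and 178 in Ctrl and 128, 154 and 133 in KO (-0.28, 95% confidence interval -0.53 to -0.02, adjusted p = 0.737). Rela (51.1, 47.3 and 41.0 in KO against 51.3 to 57.5) and Nfkbie (10.5, 10.0 and 10.5 against 11.3 to 12.2) had KO libraries wholly below Ctrl, as did 13.6% of all genes. The KO effect on Nfkbid differed between plasma and activated cells by 0.65 (SE 0.22, adjusted p = 0.752, and 0.0048 with library weights, up to 1). None of the 10 differences passed in the fit of all libraries (0.156% of all genes were called). At an unadjusted limma p under 0.05 there were 1 of the 10 and 416 of all 12787 genes. The 4 of 9 T cell markers in the table summed to 10.2 to 15.3 in plasma KO and 1.76 to 3.28 in plasma Ctrl libraries. Cd3e (7.19 to 10.2 in KO against 0 to 0.121 in Ctrl) and Cd8b1 (2.05 to 4.73 against 0.445 to 1.10) lay higher in KO, while Lck (0.909 to 1.98 against 1.09 to 2.06) and Cd4 (0.0467 to 0.0739 against 0 to 0.108) overlapped. The 2 erythroid genes summed to 45.4 in plasma KO replicate 4, to 1.18 and 0.635 in the other KO libraries and to 0 to 0.764 in Ctrl. The part of these signals in the KO values was not tested.

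Genes around the 10 were grouped by role. The shares to read their counts against are those of all genes tested in Ctrl cells, 19% higher and 39.4% lower at the first step and 16.1% higher and 16.7% lower at the second. Of 12 further inhibitors and feedback genes, 3 rose and 4 fell from naive to activated Ctrl cells (median -0.36, against -0.29 for all genes), which is near those shares, and 3 rose and 6 fell into plasma cells (median -0.29, against -0.03 for all genes). Bcl3, a nuclear IkB-like coactivator, went from 38.0 ± 16.0 to 62.0 ± 2.51 and then fell to 18.3 ± 1.59, although its rise was lost without naive Ctrl replicate 3 (adjusted p = 0.0096 and 0.065). Nfkbiz, which encodes IkB zeta, rose from 17.7 ± 3.86 to 28.1 ± 0.639 (adjusted p = 0.0078). Both moved opposite to Nfkbid at that step. Zc3h12a, an RNase that degrades inflammatory transcripts, fell from 21.7 ± 2.79 to 8.18 ± 1.05.

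Of 33 upstream kinases and adaptors, 3 rose and 10 fell at the first step (median -0.11), fewer in each direction than the shares of all genes give. At the second 5 rose and 12 fell (median -0.17). Ikbkb, the kinase that marks IkB alpha for destruction, fell from 27.1 ± 1.85 to 11.6 ± 0.179 between naive and activated cells (adjusted p = 4.4e-06). Prkcb, a kinase that links the B cell receptor to it, fell from 82.9 ± 2.14 to 8.96 ± 0.244 between activated and plasma cells. Among 15 measured receptors of 17, 2 rose and 8 fell at the second step, with Cd40 going from 83.2 ± 11.3 to 2.70 ± 0.427 and Tnfrsf17, the plasma cell receptor BCMA, from 0.455 ± 0.510 to 120 ± 16.7.

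Among known NF-kB target genes more fell than rose into plasma cells. Of 33 measured of 34, 8 rose and 12 fell at the first step (median -0.12, against -0.29 for all genes). At the second 5 rose and 19 fell, with a median of -1.09 against -0.03. Ltb, a lymphotoxin subunit, fell from 111 ± 14.8 to 2.02 ± 0.550 and the survival gene Bcl2a1d from 125 ± 4.41 to 5.82 ± 0.620. The targets that rose included Irf4, a factor that plasma cells need (44.3 ± 3.37 to 183 ± 14.3), and the survival gene Bcl2l1 (8.78 ± 1.06 to 33.2 ± 0.773). Nfkbiz and Bcl3 are on both this list and the inhibitor list.

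Under G9a loss none of the 60 further inhibitors, adaptors and receptors was called in any cell type in the fit of all libraries. At an unadjusted p under 0.05 there were 2, 8 and 3 of them in naive, 0, 5 and 0 in activated and 0, 2 and 2 in plasma cells, in the order inhibitors, adaptors, receptors. Over all 12787 genes there were 3072 in naive, 1288 in activated and 750 in plasma cells, so the 8 of 33 adaptors in naive cells lie at the level of all genes. Of the 33 measured target genes, 1 was called higher and 2 lower in naive cells, near the 7.23% of all genes called there. In activated cells 2 were called lower and in plasma cells 1 higher, with 1.78% and 0.61% of all genes called. These counts were not tested against those shares. Irf1, an interferon regulatory factor, fell in activated KO cells from 33.0 ± 1.19 to 18.8 ± 3.16 (-0.80, adjusted p = 0.0079, and at most 0.0499 in the alternatives run for it). Slfn2 fell too (110 ± 4.98 to 72.6 ± 16.2, adjusted p = 0.040), but that call was lost on RPKM as deposited, with the replicate block and without any 1 of 5 of the 6 libraries (up to 0.285), all but activated KO replicate 4. In plasma cells Myc rose by 0.75 on the log2 scale from 10.3 ± 1.22 (adjusted p = 0.0077), a call lost without Ctrl replicate 1, KO replicate 1 or KO replicate 3 (up to 0.073). In naive cells Icam1 was called higher and Ccl3 and Il6 lower, and none of these 3 passed with own libraries (adjusted p = 0.692, 0.498 and 0.700).

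Across the 18 libraries the 10 genes followed each other to differing degrees. Pearson's r of log2(scaled RPKM + 1) was 0.984 between Nfkb2 and Nfkbid, 0.981 between Rel and Nfkbid and 0.970 between Nfkb1 and Nfkbie. It was lower between Nfkbia and Tnfaip3 (0.770), Rela and Nfkbia (0.748), Rela and Nfkbie (0.634) and Nfkb1 and Rela (0.632), the last being the lowest pair without Nfkbib. Nfkbib reached 0.485 at most, with Rela. The 18 points share cell type, and these values describe the cell type pattern. Genes with Gm, Rik or LOC symbols were left out of the ranking by likeness. Of the other genes tested, Neurl3 (0.995) and the NF-kB target Birc3 (0.994) were most like Nfkb2. Treml2 (0.990) and the kinase gene Ikbkb (0.989) were most like Rel, and Map2k1 (0.992) most like Nfkbid. Pdlim2 (0.984) was nearest to Nfkb1, Morc3 (0.975) to Nfkbie, Stat6 (0.980) to Relb and Scaper (0.977) to Tnfaip3. Nearest to Rela was Cdk13 (0.967), to Nfkbia Abi3 (0.942) and to Nfkbib Nat8f1 (0.853).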

How the data were processed

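RNA was measured by SMART-seq v4 and Nextera XT sequencing of 1000 cells per library. Reads were aligned with STAR to mm10, per the submitters' processing notes; for versions, read counter, gene models and the detection rule the status is: not given in the sources used here. The deposited values are RPKM, which the authors computed per gene and library. RPKM is not a count, so no count test was run; low values were whole multiples of 1 read too seldom to recover reads.

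From these, RPKM was scaled per library by the median ratio over 8012 genes above 1 RPKM in every library (factors 0.903 to 1.07). Genes with a group mean of at least 1 RPKM (12787) were tested with limma 3.58.1 in R 4.3.3 (trend, two-sided, all 18 libraries, no block) on log2(value + 1), with Benjamini-Hochberg adjustment over all of them. A change on this scale understates that of low genes. "Own libraries" fits only the groups compared, and library weights are limma's. All 10 genes are named; from each list up to 2 called genes in each direction could be, by smallest adjusted p, and for likeness up to the 3 highest correlations. The 10 genes, the lists and the tests were chosen with earlier results of these data known. Gene positions are from GENCODE M21 (GRCm38). The fit was run on simulated data in which each gene had the same spread in all groups. That run cannot vouch for calls that depend on the wider spread of the naive libraries. The fit without the naive libraries was chosen after seeing the data. Some genes that these rules select are not reported here.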

Additional observations from a re-analysis of the deposited data

How the results depend on the processing

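Of 1732 values of the 10 genes under the alternatives, 1705 stayed on their side of the threshold (shares, within 1 SD), 21 passed it newly and 6 no longer passed, and none changed direction while called. Counts are given as called in the fit of all libraries and then under the alternative. KO against Ctrl in naive cells gave 924 genes, 436 with a pseudocount of 0.1, 472 with a filter at 5 RPKM, and 0 with library weights or own libraries (996 and 898 at an unadjusted limma p under 0.05). In activated cells it gave 228, and 2446 with weights, 1442 with own libraries and 1850 without the 6 naive libraries, each with 1 of the 10 genes (Nfkbie) against 0. In plasma cells 78 became 1641 (with 2 of the 10 genes against 0), 653 and 788. Activated against naive Ctrl gave 7465, and 4963 with the filter at 5 RPKM. Plasma against activated cells gave 4196 in Ctrl, then 7111, 6430 and 6663, and 4235 in KO, then 7507, 6744 and 6781. The KO effect in activated against naive cells gave 335, 206 with a pseudocount of 0.1, 6 with weights and 24 with own libraries. In plasma against activated cells it gave 20, then 636 (with 1 of the 10 genes against 0), 208 and 208. The cause was not tested.

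The labels do not say whether libraries with the same replicate number share a mouse. Correlations of their deviations ran from -0.212 to 0.312 and were 0.068, 0.195 and 0.312 between plasma Ctrl and KO, so the numbers were not taken as pairs. With the replicate block the KO effect in activated against naive cells gave 504 genes and 1 of the 10, and the block left every other count of the 10 genes as it was.

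Leaving out 1 library gave, for KO in naive cells, 880 to 2436 genes and 0 to 1 of the 10, in activated cells 90 to 165 genes, in plasma cells 46 to 52, for the KO effect in activated against naive cells 108 to 1191 genes and 0 to 2 of the 10, and in plasma against activated cells 9 to 16 genes. Another scaling moved the split of higher and lower calls: quantile normalization gave 2693 and 2847 for activated against naive Ctrl (2424 and 5041 otherwise), 3430 and 3426 for plasma against naive Ctrl (3106 and 5682), 2715 and 2794 for activated against naive KO (2717 and 4410) and 415 and 372 for KO in naive cells (269 and 655). RPKM as deposited gave 1547 and 2988 for plasma against activated Ctrl (2055 and 2141) and 1680 and 2898 in KO (2014 and 2221), and moved the median of all genes in the former from -0.03 to -0.14. The table gives no depth, so no limit of detection was computed.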
